A study of Mus musculus with 24 samples.

Results

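The chemokines Cxcl1, Ccl2, Cxcl10, Cxcl12 and Cx3cl1 and the cytokine Csf1 were followed across doses and times of the proteasome inhibitor lactacystin in primary mouse cortical neurons. The 6 genes were chosen by symbol in the deposited signal table, where 8 of 24613 probes with values carry one of these symbols. Transcript levels were read on 24 bead arrays (Illumina MouseRef-8), each holding 1 RNA sample. The cells were neocortical neurons of Swiss albino mouse foetuses taken at gestation day 15 or 16 and used on day 5 of culture, with no transgene or other genetic change named. Lactacystin, which blocks the complex that degrades ubiquitin-tagged proteins, was applied at 2 doses. The 1 µM cultures were collected after 5, 8, 15 and 24 h, the 0.1 µM cultures after 15 and 24 h, and each of these 6 groups has 3 arrays. Untreated cultures make up the remaining 6 arrays. The labels give no solvent and no collection time for the untreated cultures, so both are part of every comparison with them, and nothing says that replicates came from separate cultures, so p-values reflect the spread of these samples alone, which may be technical. Each of 3 slides held 2 untreated arrays and 1 of every treated group, and every treated group sat at 1 fixed position, which therefore cannot be told apart from the group.

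Chemokines are small secreted proteins that draw cells along a gradient by binding receptors of the G protein-coupled class. In brain, Cx3cl1 is made by neurons as a membrane-anchored protein that binds Cx3cr1 on microglia. Cxcl12 guides migrating neurons through Cxcr4, Cxcl1 attracts neutrophils through Cxcr2, Ccl2 attracts monocytes through Ccr2, and the interferon-induced Cxcl10 binds Cxcr3. Csf1, also called macrophage colony-stimulating factor, maintains microglia through its receptor Csf1r. Transcription of Cxcl1, Ccl2, Cxcl10 and Csf1 is known to respond to NF-kB, whose inhibitor IkB is itself removed by the proteasome.

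Promoter windows in the RefSeq tables (GRCm38.p6) were available for 5 of the 6 genes, each running from 250 bases before to 50 bases after the gene start. Of these, the windows that held a kappaB consensus match are shown, because this DNA element binds NF-kB. Cxcl1 and Csf1 behaved differently on the arrays, while Cxcl10 was detected on only 1 of 24. Motif matches are in capitals, and each window reads 5′ to 3′ on the strand of the gene.
Cxcl1, chr5:90890995-90891294, plus strand: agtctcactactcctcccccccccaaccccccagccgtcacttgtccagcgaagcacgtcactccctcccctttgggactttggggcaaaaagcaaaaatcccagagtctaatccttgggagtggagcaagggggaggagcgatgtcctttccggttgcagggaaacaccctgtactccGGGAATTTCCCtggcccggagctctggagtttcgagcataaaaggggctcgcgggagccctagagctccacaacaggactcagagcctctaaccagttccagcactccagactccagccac
Csf1, chr3:107760420-107760719, minus strand: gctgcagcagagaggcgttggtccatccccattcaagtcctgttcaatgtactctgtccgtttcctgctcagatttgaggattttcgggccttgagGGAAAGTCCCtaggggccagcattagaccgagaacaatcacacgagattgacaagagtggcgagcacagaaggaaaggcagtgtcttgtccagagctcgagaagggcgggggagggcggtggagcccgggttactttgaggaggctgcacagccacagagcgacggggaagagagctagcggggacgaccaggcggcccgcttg
Cxcl10, chr5:92348840-92349139, minus strand: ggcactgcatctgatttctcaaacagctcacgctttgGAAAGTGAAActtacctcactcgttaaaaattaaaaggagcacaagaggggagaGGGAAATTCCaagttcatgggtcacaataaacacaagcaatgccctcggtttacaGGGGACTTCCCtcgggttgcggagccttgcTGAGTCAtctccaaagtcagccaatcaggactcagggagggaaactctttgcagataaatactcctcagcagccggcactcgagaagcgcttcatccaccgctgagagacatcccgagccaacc
The Cxcl1 window held 2 kappaB matches that overlap and begin 71 and 70 bases before the gene start, and the Csf1 window held 1 that begins 154 bases before it. The Cxcl10 window held 3 kappaB matches, of which 2 overlap, an interferon-stimulated response element (ISRE) and an AP-1 element (searched as TGANTCA). The windows of Cxcl12 and Cx3cl1 held no match to these motifs or to the CRE (TGACGTCA), the heat shock element (GAANNTTC) and the ATF4 element (TGATGNAA), all searched on both strands. Of 32851 windows of this length, 8.46% held a kappaB match, 7.81% an AP-1 match, 3.44% an ISRE match, 1.79% a CRE match, 7.86% a heat shock match and 3.97% an ATF4 match. A match is a run of letters and shows no binding.

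A probe counted as detected on an array where its detection score was at least 0.99, and probes detected on at least 3 arrays were kept. This left 5 of the 8 probes and 4 of the 6 genes: Cxcl1, Csf1, Cxcl12 and Cx3cl1. Cxcl1, Csf1 and Cx3cl1 have 1 probe each. Cxcl12 has 3, of which the brightest (scl41202.6.1_16-S, detected on 24 of 24 arrays) stands for the gene, another was detected on 5 arrays and the last on 0. The Ccl2 probe was detected on 0 of 24 arrays and the Cxcl10 probe on 1. Differences are given on the log2 scale after background correction and quantile normalization, with the limma standard error (SE), and a gene was called at a Benjamini-Hochberg adjusted p below 0.05 over the 10896 genes tested. Median array signal lay between 52.2 and 81 arbitrary units, and 11274 to 12399 probes per array were detected. Untreated arrays differed from each other more than treated replicates did: the root mean square difference over all genes was 0.29 to 0.55 for untreated pairs and 0.21 to 0.31 for treated pairs.

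Cxcl1 rose late and strongly at 1 µM and did not pass the test at 0.1 µM. Its signals in the 6 untreated cultures were 59.2, 68.6, 48.8, 57.6, 85.7 and 67.3 arbitrary units, with detection on 2 of 6 arrays. At 1 µM they were 72.7, 62.7 and 61.8 after 5 h, then 88.5, 114.4 and 84.5 after 8 h. They reached 312.4, 259.0 and 272.6 after 15 h and were 239.2, 234.6 and 229.3 after 24 h. All 6 arrays of the last 2 times lay above every other array, whereas at 8 h the lowest signal still fell inside the untreated range. At 0.1 µM the signals were 61.8, 59.5 and 60.3 after 15 h and 64.0, 58.6 and 48.3 after 24 h, all within the untreated range apart from 1 value just under it.

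**Figure D1:**
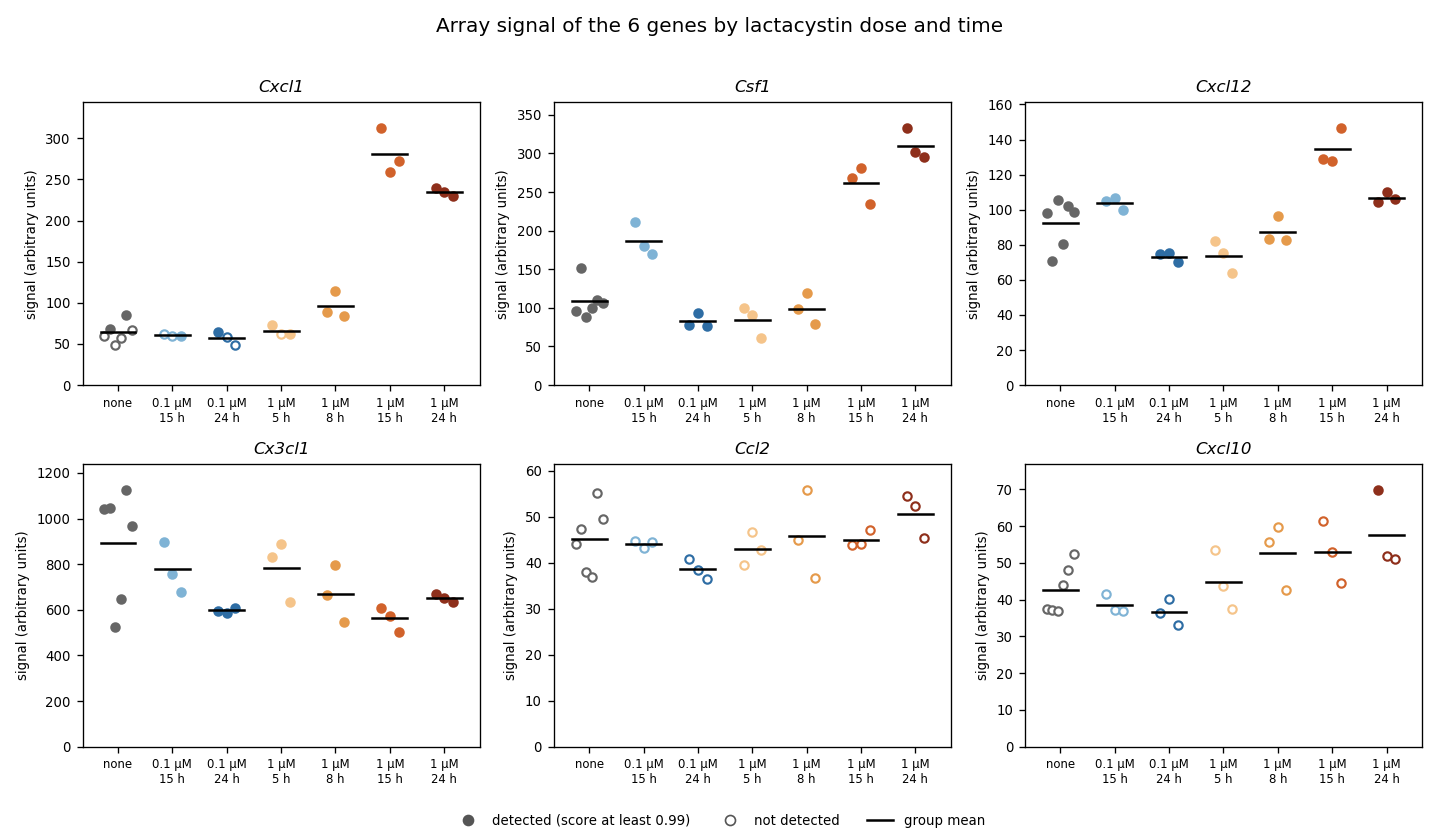
Deposited array signal (arbitrary units, linear axis from 0) of the 6 genes, with 1 point per array, filled where the probe was detected, and a bar at the group mean. Cxcl1 and Csf1 stand apart from the untreated arrays after 15 and 24 h at 1 µM, Csf1 also after 15 h at 0.1 µM, and Ccl2 stays between 36.4 and 55.9 on all arrays.

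Against untreated cultures Cxcl1 was higher by 0.97 ± 0.15 (log2 change ± SE; adjusted p = 2.68e-05) after 8 h at 1 µM. The change was 3.12 ± 0.15 after 15 h (8.67-fold, adjusted p = 2.52e-13) and 2.76 ± 0.15 after 24 h (6.77-fold, adjusted p = 1.35e-12). Untreated cultures detected the probe on 2 of 6 arrays, and the sizes depend on the background step: without background correction the changes were 2.26 and 1.94, and with offset 50 they were 2.19 and 1.88, all still called. The change at 5 h, 0.31 ± 0.15, did not pass (adjusted p = 0.216). The rise from 5 to 8 h was 0.67 ± 0.17 (adjusted p = 0.0109), and without 1 µM 5 h replicate 2 it was 0.46 (adjusted p = 0.0862). The rise from 8 to 15 h was 2.14 ± 0.17 (adjusted p = 6.65e-09). From 15 to 24 h the level differed by -0.36 ± 0.17 (adjusted p = 0.199): the 3 arrays at 24 h all lay below the 3 at 15 h without the difference passing the test. At 0.1 µM the change was 0.06 (95% confidence interval -0.25 to 0.38) after 15 h and 0.05 (-0.27 to 0.36) after 24 h. The doses differed by 3.05 ± 0.17 at 15 h and by 2.71 ± 0.17 at 24 h (adjusted p = 6.48e-12 and 2.67e-11).

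Csf1 rose at both doses, but the rise at 0.1 µM was present at 15 h and gone at 24 h. Untreated signals were 95.8, 152.0, 87.7, 100.1, 110.0 and 106.2. At 0.1 µM they were 211.5, 180.2 and 169.6 after 15 h and 78.0, 93.3 and 77.1 after 24 h. The 15 h arrays lay above every untreated array, 2 of the 24 h arrays lay below the untreated range and 1 inside it. At 1 µM the signals were 99.3, 91.3 and 60.9 after 5 h and 99.0, 118.9 and 78.6 after 8 h. They were 268.1, 281.5 and 234.6 after 15 h and 332.8, 301.5 and 295.7 after 24 h, above all other arrays at both times.

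The log2 change of Csf1 at 0.1 µM was 1.25 ± 0.19 after 15 h (2.38-fold, adjusted p = 9.40e-05) and -0.18 ± 0.19 after 24 h (adjusted p = 0.649). The fall between these times was -1.43 ± 0.22 (adjusted p = 1.88e-04), and only 28 genes fell further between them. At 1 µM Csf1 was higher by 1.81 ± 0.19 after 15 h (3.50-fold, adjusted p = 4.02e-08) and by 2.03 ± 0.19 after 24 h (4.09-fold, adjusted p = 6.40e-09). The changes at 5 h, -0.36 ± 0.19, and at 8 h, -0.18 ± 0.19, did not pass (adjusted p = 0.249 and 0.481). The step from 8 to 15 h was 1.99 ± 0.22 (adjusted p = 4.88e-07), and that from 15 to 24 h, 0.22 ± 0.22, did not pass (adjusted p = 0.571). The 15 to 24 h step therefore differed between doses by 1.65 ± 0.31 (adjusted p = 8.95e-04), with differences of 1.28, 1.66 and 2.01 on the 3 slides. The doses differed by 2.21 ± 0.22 at 24 h (adjusted p = 2.00e-08). At 15 h they differed by 0.56 ± 0.22 (adjusted p = 0.0362), a call that was lost when any 1 of the 6 arrays was left out (0.51 to 0.59, adjusted p = 0.0565 to 0.0980).

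**Figure D2:**
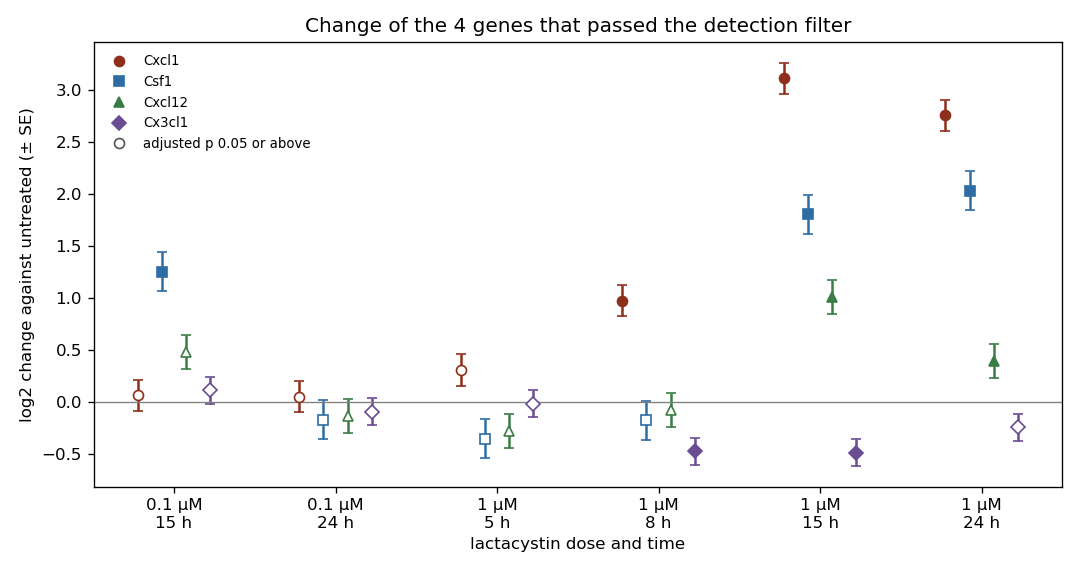
Log2 change against untreated cultures (± SE from limma) of the 4 genes that passed the detection filter, by lactacystin dose and time, with filled symbols where the adjusted p was below 0.05. Cxcl1 reaches 3.12 after 15 h at 1 µM and 0.06 at 0.1 µM, while Csf1 reaches 1.81 and 1.25 at the same time.

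Cxcl12 was read by 2 kept probes, and both were higher after 15 h at 1 µM. After 24 h the second probe was also higher, while the brightest lay close to the threshold. The brightest probe gave 97.9, 70.6, 105.8, 80.7, 101.9 and 98.7 in untreated cultures. It gave 128.8, 128.0 and 146.5 after 15 h at 1 µM, above every other array, and 104.1, 110.1 and 106.0 after 24 h, which overlaps the untreated range. At 1 µM it gave 82.1, 75.3 and 63.7 after 5 h and 83.1, 96.3 and 82.5 after 8 h. At 0.1 µM it gave 104.9, 106.6 and 100 after 15 h and 74.6, 75.3 and 69.9 after 24 h, so its 15 h arrays again lay above its 24 h arrays. The log2 change was 1.01 ± 0.17 after 15 h at 1 µM (2.01-fold, adjusted p = 2.18e-05). After 24 h it was 0.39 ± 0.17 (adjusted p = 0.0478), and this call was lost with all kept probes in the fit (adjusted p = 0.0503) and without 5 of the 9 arrays when each was left out in turn (untreated replicates 2, 4 and 5, and 24 h replicates 2 and 3; 0.31 to 0.37, adjusted p = 0.0727 to 0.163). The change after 15 h at 0.1 µM, 0.48 ± 0.17, did not pass (adjusted p = 0.0523), and with slide as a block it did (adjusted p = 0.0220). It also passed without untreated replicate 3 (0.59, adjusted p = 0.00879). Changes at 5 and 8 h of 1 µM, -0.28 and -0.08, and after 24 h of 0.1 µM, -0.14, did not pass (adjusted p = 0.302, 0.744 and 0.690).

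The step of the brightest Cxcl12 probe from 8 to 15 h at 1 µM was 1.08 ± 0.19 (adjusted p = 1.57e-04). From 15 to 24 h its level fell by 0.61 ± 0.19 at 1 µM (adjusted p = 0.0388) and by 0.61 ± 0.19 at 0.1 µM (adjusted p = 0.0392), and the difference between these falls was -0.00 ± 0.27 (adjusted p = 0.997). The first fall lost its call without any 1 of its 6 arrays (-0.70 to -0.47, adjusted p = 0.0512 to 0.166) and the second without 5 of 6, all but 0.1 µM 15 h replicate 1 (-0.67 to -0.55, adjusted p = 0.0577 to 0.130). Between doses the probe differed by 0.53 ± 0.19 at 15 h (adjusted p = 0.0239) and by 0.53 ± 0.19 at 24 h (adjusted p = 0.0234). The first was lost without 1 µM replicate 3 (0.39) or 0.1 µM replicate 1 (0.44), and the second without 1 µM replicates 2 or 3 or 0.1 µM replicates 1 or 2 (0.47 to 0.52, adjusted p = 0.0540 to 0.0805).

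The second Cxcl12 probe (GI_85702148-S), which the array design assigns to another RefSeq transcript of the gene, moved the other way between 15 and 24 h. The same design assigns the brightest probe and the one detected on 0 arrays to a single transcript. The cause of differences between these probes was not tested. Untreated signals of the second probe were 57.3, 49.8, 52.8, 48.8, 69.6 and 63.9, none of them detected. At 1 µM it gave 64.7, 64.3 and 62.3 after 15 h, with 2 of 3 arrays detected, and 90.4, 86.7 and 90.6 after 24 h, all detected and above every other array. In the other groups it lay between 37.9 and 70.5 and was detected on 0 arrays. The rise from 15 to 24 h was 0.71 ± 0.12 (adjusted p = 7.31e-04), with 0.60, 0.80 and 0.73 on the 3 slides, where the brightest probe gave -0.46, -0.77 and -0.61. Against untreated cultures the second probe was at least 1.02-fold higher after 15 h (adjusted p = 0.0015) and at least 1.36-fold higher after 24 h (adjusted p = 5.55e-09). It passed the detection filter only through its 5 detected arrays in these groups, so these p-values are no separate support. Here and for the other genes with a group not detected on any array, a lower bound is set against the lowest detected signal, and the lower of the bounds with and without background correction is given. Its 15 to 24 h step differed between doses by 1.05 ± 0.17 (adjusted p = 2.85e-04), where the signals at 0.1 µM were not well above background, and by 0.54 with offset 50, where it was still called. The step of the second probe less that of the brightest was 1.06, 1.57 and 1.34 on the 3 slides. The second probe was singled out after its values were seen. With all 13561 kept probes in the fit, 52.4% were called after 15 h and 54.8% after 24 h at 1 µM, 10.2% for the step between them and 14.7% for the interaction of dose and time.

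**Figure D3:**
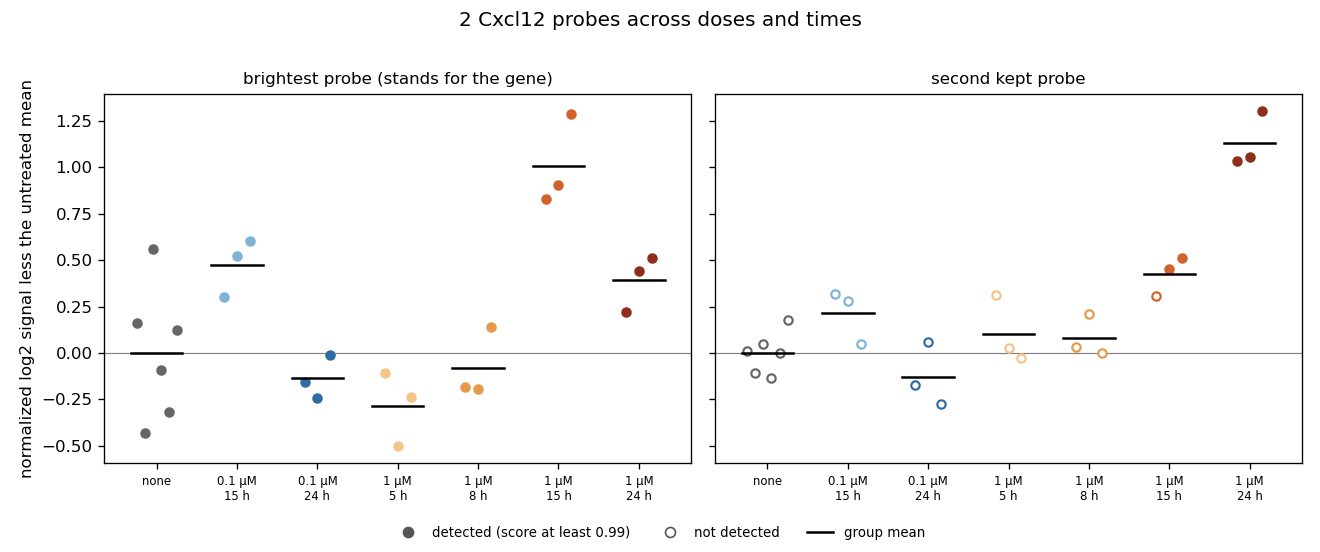
Normalized log2 signal of the 2 kept Cxcl12 probes, each less its own untreated mean, with 1 point per array, filled where detected, and a bar at the group mean. The brightest probe is highest after 15 h at 1 µM and the second after 24 h, when its 3 arrays are detected.

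Cx3cl1, detected on all arrays, was lower after 8 and 15 h at 1 µM by a modest amount. Its untreated signals were 1041.9, 1047.3, 525.6, 645.7, 1127.0 and 967.4, and the low pair, replicates 3 and 4, shares slide 2. At 1 µM the signals were 830.4, 888.3 and 635.6 after 5 h and 665.5, 796.7 and 545.3 after 8 h. They were 610.0, 574.7 and 502.0 after 15 h and 669.2, 650.3 and 635.9 after 24 h. At 0.1 µM they were 899.1, 758.5 and 679.8 after 15 h and 596.7, 586.5 and 609.5 after 24 h. Every treated group overlapped the untreated range.

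The log2 change of Cx3cl1 was -0.48 ± 0.13 after 8 h (adjusted p = 0.00570) and -0.49 ± 0.13 after 15 h (adjusted p = 0.00284) at 1 µM. Within the 3 slides the 15 h change was -0.82, -0.24 and -0.42. Without the untreated arrays of slide 2 the changes at 8 and 15 h were -0.64 and -0.66 (adjusted p = 6.73e-05 and 2.03e-05). The change after 24 h, -0.25 ± 0.13, did not pass (adjusted p = 0.110), but it did without those arrays (-0.41, adjusted p = 0.00199) or without untreated replicate 3 alone (-0.34, adjusted p = 0.0111). With each array centred on its median, the 8 h change did not pass (-0.35, adjusted p = 0.109) and the 24 h change did (-0.43, adjusted p = 0.0347). Under that centring the median of all genes itself was at -0.15 at 24 h. The change at 5 h, -0.02, and those at 0.1 µM, 0.11 after 15 h and -0.10 after 24 h, did not pass (adjusted p = 0.949, 0.649 and 0.725). At 15 h the doses differed by -0.60 ± 0.15 (adjusted p = 0.00199), a comparison that holds no untreated array, and the 3 arrays at 1 µM lay below the 3 at 0.1 µM. At 24 h they differed by -0.15 ± 0.15 (adjusted p = 0.425). The step from 5 to 8 h, -0.46 ± 0.15, passed (adjusted p = 0.0389) and was lost without any 1 of its 6 arrays (-0.50 to -0.44, adjusted p = 0.0640 to 0.107).

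Ccl2 and Cxcl10 did not pass the detection filter. Ccl2 signals ran from 36.4 to 55.9 over all arrays. Cxcl10 gave 37.3, 37.2, 37.0, 44, 48.1 and 52.3 in untreated cultures. At 1 µM it gave 55.6, 59.6 and 42.7 after 8 h, 61.4, 52.9 and 44.6 after 15 h and 69.9, 51.9 and 50.9 after 24 h, where the first value was its only detected one. Some of these treated signals lay above all untreated ones, but with detection on 1 array no fold is given for Cxcl10. In the fit without the filter, Cxcl10 was called higher at 1 µM against untreated cultures after 15 h (adjusted p = 0.0232) and 24 h (adjusted p = 0.00288), and against 0.1 µM at 15 h (adjusted p = 0.0363) and 24 h (adjusted p = 0.00510). The lowest adjusted p of Ccl2 over the 13 comparisons of that fit was 0.0703.

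Read together, 0 of the 4 measured genes were called after 5 h at 1 µM, where 10.3% of all genes were, and the unadjusted p of each of the 4 was also above 0.05. After 8 h Cxcl1 was higher and Cx3cl1 lower (39.9% of all genes called), and after 15 h Cxcl1, Csf1 and Cxcl12 were higher and Cx3cl1 lower (54.9%). After 24 h the 3 higher genes remained called (57.4%). At 0.1 µM Csf1 was higher after 15 h (16.5%) and 0 genes were called after 24 h (2.25%), again with every unadjusted p above 0.05. Between doses 3 genes were higher and 1 lower at 15 h (51.4%) and 3 were higher at 24 h (53.6%). For the steps at 1 µM, 1 gene rose and 1 fell from 5 to 8 h (17.6%), 3 rose from 8 to 15 h (33.1%) and 1 fell from 15 to 24 h (11.8%), while 2 fell between these times at 0.1 µM (11.7%) and 1 differed in the interaction (16.8%). With about 1 gene in 2 called after 15 and 24 h at 1 µM, the number of these genes called there is not a result about them, and their sizes and timing carry the description. The median change of the 4 genes after 15 h at 1 µM was 1.41, against -0.00 for all genes. These genes were chosen with earlier results of these data known, so this median is no separate support.

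In order of level, Cxcl1 was highest after 15 h at 1 µM, followed by 24, 8 and 5 h at 1 µM, then the 0.1 µM groups and untreated cultures. The difference between the top neighbours did not pass the test, the 24 h level lay 1.79 ± 0.17 above 8 h with no overlap of arrays, and the 4 lowest groups overlapped. Csf1 was highest after 24 h at 1 µM, followed by 15 h at 1 µM, 15 h at 0.1 µM, untreated cultures, 24 h at 0.1 µM, and 8 and 5 h at 1 µM, and its 4 lowest groups overlapped. For the brightest Cxcl12 probe the order was 15 h at 1 µM, 15 h at 0.1 µM and 24 h at 1 µM, the latter pair 0.08 ± 0.19 apart, then untreated cultures, 8 h at 1 µM, 24 h at 0.1 µM and 5 h at 1 µM within 0.28 of each other. For Cx3cl1 no neighbours in the order differed by more than 0.23 ± 0.15, from 15 h at 0.1 µM at the top to 15 h at 1 µM at the bottom.

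Across the 24 arrays, which share slides and groups, Cxcl1 and Csf1 levels had a Pearson r of 0.762, Csf1 and Cxcl12 of 0.724, and Cxcl1 and Cx3cl1 of -0.572. The genes most like Cxcl1 over the same arrays were Ccn4 (r = 0.983), a secreted matrix protein of the Wnt pathway, the chaperone Hsph1 (0.981) and Stbd1 (0.975), a glycogen-binding protein. Those most like Csf1 were Cd109 (0.971), Anxa3 (0.965) and the collagen Col18a1 (0.963). The arrays used to pick these 3 include those at 0.1 µM, so a shared short-lived change there comes with the selection. Anxa3 was at 2.03 after 15 h and 0.47 after 24 h at 0.1 µM against untreated cultures, Cd109 at 1.40 and 0.11, and Col18a1 at 1.59 and -0.11. The nearest to Cxcl12 were Gmds (0.856), Pef1 (0.830) and Fam199x (0.805), and to Cx3cl1 the endoplasmic reticulum isomerase Ppib (0.908), Shisa5 (0.850) and Grhpr (0.845). These values describe likeness only.

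Of the receptors named above for these ligands, Cxcr4 and Cx3cr1 were measured. They moved in opposite directions after 15 and 24 h at 1 µM. Probes of Cxcr2, Cxcr3, Ccr2 and Csf1r were detected on 0 of 24 arrays and that of Ackr3, a scavenger of Cxcl12, on 1. Cxcr4 signals were 345.1, 260.3, 258.2, 238.9, 439.1 and 303.5 in untreated cultures. They were 129.9, 119.4 and 119.9 after 15 h and 169.7, 121.0 and 124.4 after 24 h at 1 µM, below all untreated arrays. The log2 change was -1.32 ± 0.11 after 15 h (adjusted p = 1.16e-09) and -1.27 ± 0.11 after 24 h (adjusted p = 1.89e-09). Cx3cr1 signals were 70.1, 70.7, 52.7, 54.4, 98.1 and 68.8 in untreated cultures, with 3 of 6 detected, and 166.3, 162.5 and 154.6 after 24 h at 1 µM, above all of them.

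Cx3cr1 rose by 0.98 ± 0.12 after 15 h and by 1.95 ± 0.12 after 24 h at 1 µM (adjusted p = 6.92e-07 and 1.60e-11). It was detected on all 6 arrays of these times. After 5 and 8 h it was detected on 0 arrays and called lower than untreated (adjusted p = 0.0458 and 2.82e-04). These signals were not well above background, so no fold is given. Its ligand Cx3cl1 was lower at 8 and 15 h, as given above. Of 25 receptors and scavengers listed, 5 were tested, and at 24 h of 1 µM 2 were higher (Cx3cr1 and the co-receptor Sdc4 at 0.62 ± 0.16), 2 lower (Cxcr4 and the scavenger Ackr1 at -0.90 ± 0.09) and 1 was not called (median 0.08, all genes -0.05). Of all genes, 57.4% were called there.

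Cx3cr1 is also a microglial marker, so the marker list was read beside it. Of 16 microglial markers, 6 were detected on no array, among them Csf1r, Itgam, Ptprc and P2ry12, and Tmem119 was detected on 2. The summed normalized signal of the list was 769 to 1052 in untreated cultures and 1375 to 1541 after 24 h at 1 µM. Cd68, a lysosomal protein of phagocytes, rose by 2.86 at that time, while the complement genes C1qa, C1qb and C1qc went from detection on 5, 6 and 6 of the 6 untreated arrays to 0, 1 and 0 of 3. In all, 3 of 8 tested markers rose and 5 fell, where 57.4% of all genes were called. The sums for astrocyte and neuron markers were 12240 to 18470 and 24420 to 29050 in untreated cultures, against 10220 to 10990 and 15160 to 16370 after 24 h at 1 µM. Of the sums of the 6 marker lists, that of oligodendrocyte lineage markers shifted most in proportion. It was 11490 to 14100 in untreated cultures, 2805 to 2993 after 15 h and 4765 to 5226 after 24 h at 1 µM. Cxcl1 and Csf1 were high at these times. The median log2 change of tested astrocyte markers at these times was larger, -0.875 and -1.352. That of oligodendrocyte lineage markers was -0.793 and -0.799. The sum for fibroblast and meningeal markers was 1003 to 1322 in untreated cultures and 568.8 to 612.8 and 677.4 to 698.3 at these times. After 15 h at 0.1 µM, when Csf1 was higher, the sums were 1030 to 1154 for microglia, 16900 to 18550 for astrocytes and 23090 to 26140 for neurons. In these bulk samples fewer cells of a type and less RNA per cell cannot be told apart, and the part of these markers in the changes of the chemokines was not tested.

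**Figure D4:**
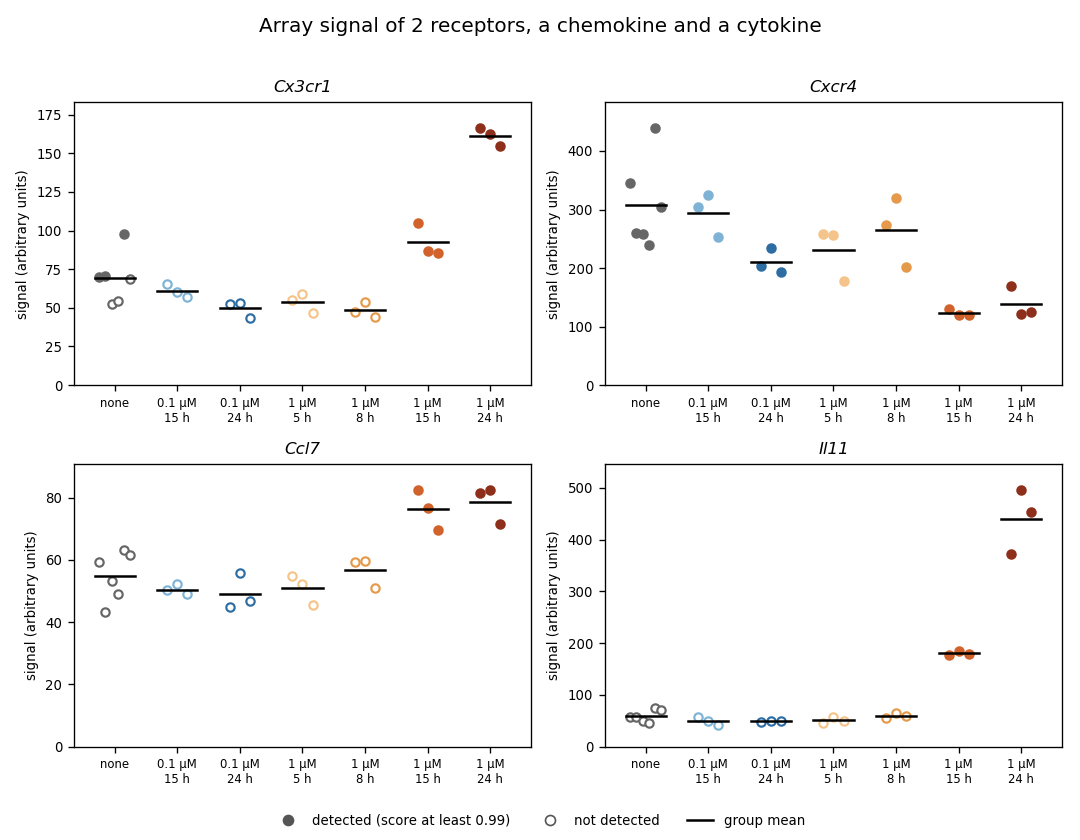
Deposited array signal (arbitrary units, linear axis from 0) of the receptors Cx3cr1 and Cxcr4, the chemokine Ccl7 and the cytokine Il11, with 1 point per array, filled where detected, and a bar at the group mean. After 24 h at 1 µM, Cx3cr1 lies between 154.6 and 166.3 and Cxcr4 between 121.0 and 169.7.

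Few other chemokine ligands were measurable, and they did not follow Cxcl1 as a group. Of 32 listed, 31 had a probe and 10 were tested. After 15 h at 1 µM 1 was higher and 3 lower (median -0.07, all genes -0.00), where 54.9% of all genes were called. After 24 h 1 was higher and 2 lower, where 57.4% of all genes were called. The higher one was Ccl7, a monocyte chemoattractant related to Ccl2. It gave 43.4 to 63.3 with no detection in untreated cultures, 82.5, 76.8 and 69.5 after 15 h and 81.6, 82.6 and 71.4 after 24 h. That is at least 1.24-fold (adjusted p = 1.38e-08) and at least 1.19-fold (adjusted p = 6.39e-08) higher. Ccl7 passed the detection filter only through these treated arrays, so these p-values are no separate support. Cxcl14 was at -0.71 ± 0.10 after 15 h and -1.23 ± 0.10 after 24 h (adjusted p = 2.09e-09) and Ccl19 at -0.58 ± 0.14 and -0.77 ± 0.14. Ccl19 was detected on 2 of 3 arrays after 15 h and 1 of 3 after 24 h, so background limits these sizes. The third called lower after 15 h was Ccl3, which was detected on 1 untreated array and on none at 1 µM, so no fold is given. After 15 h at 0.1 µM 1 of the 10 was lower and 9 were not called, where 16.5% of all genes were called.

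Among 6 tested cytokines that act on myeloid cells (16 listed), 2 rose and 2 fell after both 15 and 24 h at 1 µM (median 0.25 and 0.16), where 54.9% and 57.4% of all genes were called. Il11, of the interleukin-6 family, was detected on no untreated array and gave 177.8, 185.1 and 179.4 after 15 h and 371.3, 496.4 and 452.4 after 24 h. These levels are at least 3.02-fold and at least 6.99-fold above untreated (adjusted p = 9.61e-13 and 8.07e-16). Il11 passed the detection filter only through these treated arrays, so these p-values are no separate support. Lif, of the same family and detected on 2 of 6 untreated arrays, was at 0.59 ± 0.13 and 0.72 ± 0.13. Il18 was lower by -1.90 ± 0.17 at both times, and Mif by -0.72 ± 0.09 and -0.65 ± 0.09. At 0.1 µM Il11 was detected on 0 arrays.

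Proteins that cut or protect chemokines changed in both directions. After 24 h at 1 µM 3 of 5 were higher and 1 lower (8 listed, median 0.59), where 57.4% of all genes were called. Adam17, a protease that sheds Cx3cl1, rose by 0.59 ± 0.08 after 24 h (adjusted p = 1.48e-06) and did not pass at 15 h (0.16 ± 0.08). Mmp2, which can cleave Cxcl12 and was detected on 2 of 6 untreated arrays, and the inhibitor Timp1 rose at 24 h by 0.87 ± 0.14 and 1.49 ± 0.22. Both also rose after 15 h at 0.1 µM, by 0.63 ± 0.14 (adjusted p = 0.00264) and 0.96 ± 0.22 (adjusted p = 0.00479), and stood at 0.04 and -0.11 after 24 h at that dose. Mmp14 was lower by -1.74 ± 0.11 after 15 h and -1.31 ± 0.11 after 24 h at 1 µM.

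Of 21 NF-kB subunits, regulators and targets listed, 16 were tested. At 1 µM 4 were higher and 0 lower after 5 h, where 10.3% of all genes were called. The counts were 7 higher and 2 lower after 8 h, 6 and 1 after 15 h, and 7 and 1 after 24 h (medians 0.31, 0.19 and 0.26). Of all genes, 39.9%, 54.9% and 57.4% were called at these later times. The counts after 15 and 24 h are therefore not a result about these genes. Nfkb1 rose by 0.75 ± 0.11, 1.04 ± 0.11 and 1.19 ± 0.11 after 8, 15 and 24 h, and Nfkbiz, a nuclear co-regulator, already by 0.66 ± 0.12 after 5 h (adjusted p = 0.00153). The kinase Chuk was higher by 1.45 ± 0.10 after 24 h. The adhesion molecule Icam1 gave 57.0 to 78.1 in untreated cultures, with detection on 1 of 6 arrays, and 72.2, 82.7 and 86.0 after 15 h at 0.1 µM, all detected (adjusted p = 0.00174). It was detected on 0 arrays after 24 h at that dose. At 1 µM it gave 106.0 to 107.9 after 15 h and 103.7 to 127.9 after 24 h, above all untreated arrays (adjusted p = 5.24e-08 and 7.74e-08). Icam1 passed the detection filter only through arrays of the groups where it was called, so these p-values are no separate support. At 0.1 µM 4 of the 16 were higher after 15 h, where 16.5% of all genes were called.

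Of 30 genes of the interferon response 15 were tested, and 7 of these were higher after 15 h at 0.1 µM (median 0.31), where 16.5% of all genes were called. Bst2, an antiviral membrane protein, rose there by 2.22 ± 0.17 (adjusted p = 2.36e-08) and Gbp3, a guanylate-binding protein, by 1.14 ± 0.13. After 24 h at 1 µM 5 were higher and 3 lower (median 0.10; 57.4% of all genes called), with Gbp3 at 1.79 ± 0.13, Bst2 at 1.27 ± 0.17, Ifit2 at -0.68 ± 0.13 and Mx2, not detected in untreated cultures, at least 1.04-fold higher. Of 12 tested AP-1 and C/EBP factors, which bind the promoters of many cytokines, 9 were higher after 5 h at 1 µM (10.3% of all genes called) and 6 after 15 h (54.9%), while 3 were lower after 15 h at 0.1 µM (16.5%). After 24 h at 1 µM 9 were higher and 1 lower (median 1.37), where 57.4% of all genes were called. Atf3 gave 47.7 to 79.6 in untreated cultures, with detection on 1 of 6 arrays, 103.0 to 157.4 after 5 h and 553.4 to 584.0 after 24 h (adjusted p = 1.78e-08 and 1.48e-16). At these times Cebpb was at 1.41 ± 0.23 and 2.60 ± 0.23, and Fos at 2.36 ± 0.51 and 2.13 ± 0.51. Untreated replicate 5 gave 1358.5 for Fos, above every treated array, and 752.1 for Cebpb, above its arrays after 5 h. The change of Fos after 15 h at 1 µM, 1.07 ± 0.51, did not pass (adjusted p = 0.0788). Fosl1, detected on no untreated array, was at least 2.12-fold higher after 15 h and at least 2.49-fold after 24 h at 1 µM. Fosl1 passed the detection filter only through 1 µM arrays of these times, and Mx2 only through those after 24 h. Atf3 likewise passed it only through its 1 µM arrays. The calls of Fosl1, Mx2 and Atf3 at 1 µM are therefore no separate support. Cxcl1 was at 0.31 ± 0.15 after 5 h (adjusted p = 0.216), when Atf3 and Cebpb were called. At 0.1 µM Fosl1 was detected on 0 arrays. The part of these factors in the changes of Cxcl1 and Csf1 was not tested.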

How the data were processed

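RNA of 24 samples was hybridized as biotin-labelled cRNA to 24 arrays. The deposited non-normalized table gives mean bead signals as intensity for 24691 probes, of which 24613 have values. Per the file headers the scanner table comes from BeadStudio 3.2.6 without normalization, and the detection scores deposited there are a fraction between 0 and 1. The authors' normalized table holds a linear ratio, the signal over the array median and then over the untreated mean (largest difference from that recomputation 1.87e-05), and served as an alternative. A further 144 columns of other scanner statistics were not used.

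Values under treated labels match scanner columns of the same group on another slide (99.9% of 14487 genes), so slides are those of the matching column and replicates those of the signal table. Background was corrected with nec of limma 3.58.1 in R 4.3.3 (negative controls inferred from detection, offset 16), followed by quantile normalization and log2. Of the probes, 20514 were matched by accession to current RefSeq symbols (GRCm38.p6), and 225 had no symbol. Probes detected on at least 3 arrays were kept (13561), and the brightest per gene was tested. A model of 7 group means was fitted with eBayes (17 residual and 4.3 prior degrees of freedom), 13 contrasts were read, and p-values were adjusted over 10896 genes. The pipeline was tested on simulated data. The number of arrays limits the precision.

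Genes named are all 6 members, up to 4 called genes per list with the largest change after 24 h at 1 µM, and the 3 genes most like each member. Microglial Cd68, C1qa, C1qb and C1qc, and Cxcr2, Cxcr3, Ccr2, Ackr3 and Csf1r, were named after their values were seen. The members and lists were chosen with earlier results of these data known. Slide, taken from the matching scanner columns rather than the treated labels, was read as a shared batch. Deviations from group means correlated at -0.06 to 0.44 for 45 pairs of treated arrays on 1 slide and at -0.42 to 0.16 on different slides. The alternatives changed the background step (none, or offset 50), the scaling (cyclic loess, or each array centred on its median), the filter (none, or detection on at least 12 arrays), the table (all kept probes, or the authors' ratio) and the model (fits of the compared groups alone, a block for slide, array weights, a robust variance trend). Each array in turn, and untreated replicates 5 and 6 together, were also left out. Leaving out the untreated arrays of slide 2, reading the second Cxcl12 probe and setting fold bounds without background correction were added after seeing the data.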

Additional observations from a re-analysis of the deposited data

Results flagged for a closer look

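The 15 to 24 h step of Csf1 differed between doses by 1.65 ± 0.31 on the log2 scale (limma adjusted p = 8.95e-04), the same direction on 3 of 3 slides. The corresponding difference for the second Cxcl12 probe was 1.05 ± 0.17 (limma adjusted p = 2.85e-04), with no detection at 0.1 µM and a range of 0.54 to 1.15 over its 18 alternatives, while the brightest Cxcl12 probe gave -0.00 ± 0.27. The second probe passed the detection filter only through 1 µM arrays and was singled out after its values were seen. Its p-value is therefore no separate support. The Cxcl10 probe, which did not pass the detection filter, gave a signal of 69.9 with a detection score of 0.994 on 1 of the 3 arrays after 24 h at 1 µM, and was detected on 0 of 6 untreated arrays. Without the filter it was called higher after 15 and 24 h at 1 µM (limma adjusted p = 0.0232 and 0.00288).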

How the results depend on the processing

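Cxcl1 and Csf1 kept their direction and calls against untreated cultures after 15 and 24 h at 1 µM in all 23 alternatives run for each (Cxcl1 2.19 to 3.19 and 1.88 to 2.83; Csf1 1.38 to 1.98 and 1.55 to 2.20), as did Csf1 after 15 h at 0.1 µM (0.91 to 1.42), its interaction in 24 alternatives (1.25 to 1.71), Cxcl12 after 15 h at 1 µM (0.64 to 1.12) and Cx3cl1 after 15 h at 1 µM (-0.66 to -0.41). The second Cxcl12 probe kept its 15 to 24 h rise in 12 of 12 (0.40 to 0.76), which is no separate support, as the probe was singled out after its values were seen. Reading Cxcl12 from that probe turned the 15 to 24 h difference at 1 µM from -0.61 to 0.71 and the interaction from -0.00 to 1.05; the cause was not tested. Cxcl12 after 24 h at 1 µM was called in 9 of 23 alternatives (0.24 to 0.51). With slide as a replicate block Cxcl12 after 15 h at 0.1 µM passed (0.48, adjusted p = 0.0220), which makes 2 members called there against 1, and no other member's call changed; the genes called after 24 h at 0.1 µM went from 2.25% to 4.94%.

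Members called went from 1 to 2 after 15 h at 0.1 µM with cyclic loess, detection on 12 arrays, array weights or without the untreated arrays of slide 2. After 8 h at 1 µM they went from 2 to 1 with median centring or only the groups compared, and after 5 h from 0 to 1 with array weights. For 15 to 24 h at 1 µM they went from 1 to 2 with offset 50 or only the groups compared, and to 0 with cyclic loess or no filter. For 5 to 8 h they went from 2 to 1 with median centring, no filter or the authors' ratio, for 15 to 24 h at 0.1 µM from 2 to 1 with no filter, and for the interaction from 1 to 2 with only the groups compared or array weights. With each array left out in turn they ranged from 1 to 2 after 15 h at 0.1 µM, 2 to 3 between doses at 15 h (4 with all arrays), 0 to 1 for 5 to 8 h (2 with all arrays), 1 to 2 for 15 to 24 h at 0.1 µM and 2 to 4 after 24 h at 1 µM (3 with all arrays), and were 0 each time for 15 to 24 h at 1 µM; the cause of these moves was not tested.

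The share of all genes called after 24 h at 0.1 µM was 20.2% with median centring, 17.7% with the authors' ratio, 14.4% without the untreated arrays of slide 2, 3.74% with array weights, 1.4% with cyclic loess, 0.771% without untreated replicates 5 and 6, and 0 with only the groups compared. After 5 h at 1 µM it was 6.27% with median centring, 22% with array weights, 23.4% without untreated replicates 5 and 6 and 1.2% with only the groups compared, which also gave 4.07% after 15 h at 0.1 µM. With no filter, which tests more genes, it was 1.03% to 33.2% over the contrasts. Array weights gave 25.4% to 49.8% for the steps and interaction, and median centring 7.47% for 15 to 24 h at 0.1 µM and 10% for the interaction. Median centring put the median of all genes at -0.14 after 15 h and -0.20 after 24 h at 0.1 µM, -0.15 after 24 h at 1 µM and -0.10 for 8 to 15 h, and the authors' ratio put it at -0.13 after 24 h at 0.1 µM. The share of calls that were higher was 60.2% after 5 h (41.6% with median centring, 43% with the authors' ratio), 51.5% after 15 h (26.2% and 30.5%) and 31.4% after 24 h at 0.1 µM (3.27% and 4.14%), 52.6% for 5 to 8 h (79.2% and 74.6%), 46% for 8 to 15 h (25.8% and 29.4%), 47.9% for 15 to 24 h (34.4% and 33%) and 38.9% for that step at 0.1 µM (19.2% and 20.6%). With median centring alone it went from 50.3% to 60.9% after 8 h and from 46.6% to 35.3% after 24 h at 1 µM. Signals near background, such as untreated Cxcl1, limit the fold changes.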
